A study of Mus musculus with 4 samples.

Results

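Voltage-gated sodium and calcium channels carry the inward currents that start and sustain the action potential, and their genes were read in embryonic stem cell (ESC) cultures differentiated towards cardiomyocytes. The members are all rows of the table of normalized counts whose symbol begins with Scn, a digit and a or b, or with Cacna, Cacnb or Cacng and a digit. This gave 41 of 24637 gene identifiers, 15 of them for sodium and 26 for calcium channels, under 40 symbols, since Scn8a is listed under a pair of identifiers. Messenger RNA was sequenced from 4 libraries, 2 of genotype Taf4+/+ (WT) and 2 of genotype Taf4-/- (Taf4a-/-), each from a separate mouse ESC line. The lines had been derived from blastocysts and kept on feeder fibroblasts, and were then grown for 5 days as embryoid bodies in serum-rich medium and for 9 days attached to gelatin. Taf4a encodes a subunit of TFIID, the general factor that binds core promoters, and the mutant allele lacks a pair of exons. The cultures were unsorted, and each library stands for 1 line. Line, differentiation run and library preparation therefore cannot be told apart. Every p-value rests on their joint spread within a genotype, with variances moderated across all genes tested.

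Whole-gene counts of the targeted gene were higher under the mutant label. Taf4a stood at 889 and 678 normalized counts in WT and at 1722 and 1799 in the libraries labelled Taf4a-/-, a log2 fold change of 1.18 ± 0.16 (SE, limma, adjusted p = 0.00569). Reads of the whole gene were counted together, deleted exons included, so the genotype cannot be read from them, and every direction below is that of the libraries labelled Taf4a-/- relative to WT. The libraries held 21732746 to 27733034 reads in genes. Both genotypes expressed cardiomyocyte genes, and all 17 cardiomyocyte markers, among them Tnnt2, Actc1, Myh6 and Nkx2-5, fell in the libraries labelled Taf4a-/- (median log2 fold change -2.92). Their summed counts were 43534 and 44528 in WT against 7937 and 7284. Of the 8 pluripotency markers 7 rose, with sums of 4794 and 1664 in WT against 14740 and 17183. Over all genes tested 17.3% fell and 11.3% rose. In unsorted cultures, fewer cells of a type and less RNA per cell cannot be told apart.

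A sodium channel is built from 1 large pore-forming alpha subunit and small beta subunits that set its gating and surface density. A high-voltage calcium channel joins a pore-forming alpha1 subunit to a cytoplasmic beta subunit and an extracellular alpha2delta subunit, and in skeletal muscle also to a gamma subunit, whereas T-type alpha1 subunits can work alone. In the heart Cacna1c gives the L-type current that triggers contraction, and Cacna1d and Cacna1g contribute to pacemaking. Most of the other alpha genes measured are known from neurons, and Scn4a and Cacna1s from skeletal muscle.

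Channel genes classed as known from the heart were lower in the libraries labelled Taf4a-/-, and those classed as neuronal mostly did not pass the test. The classes were chosen with earlier results of these data known, so the contrast between them is a description and not a test. Of the 30 channel genes that reached a mean of 10 normalized counts and were tested, 9 fell, 0 rose and 21 did not pass the threshold of an adjusted p under 0.05. Over all 16926 genes tested, 17.3% fell and 11.3% rose, and after quantile normalization these shares were 14.5% and 15.6%, with the median of all genes moved to 0.11. Among the 9 were Cacnb2, Cacna2d2, Scn3b, Cacna1d, Cacna1g, Cacna1c and Cacna1h of the cardiac class and Cacng3 of the neuronal class. Cacng3 was at 0 in both libraries labelled Taf4a-/- and passed the filter only through WT. The median log2 fold change was -0.48 over the channel genes and -0.01 over all genes. Both WT libraries lay above both others for 17 channel genes and below them for 7, where 36.6% and 34.5% of all genes did so.

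**Figure D1:**
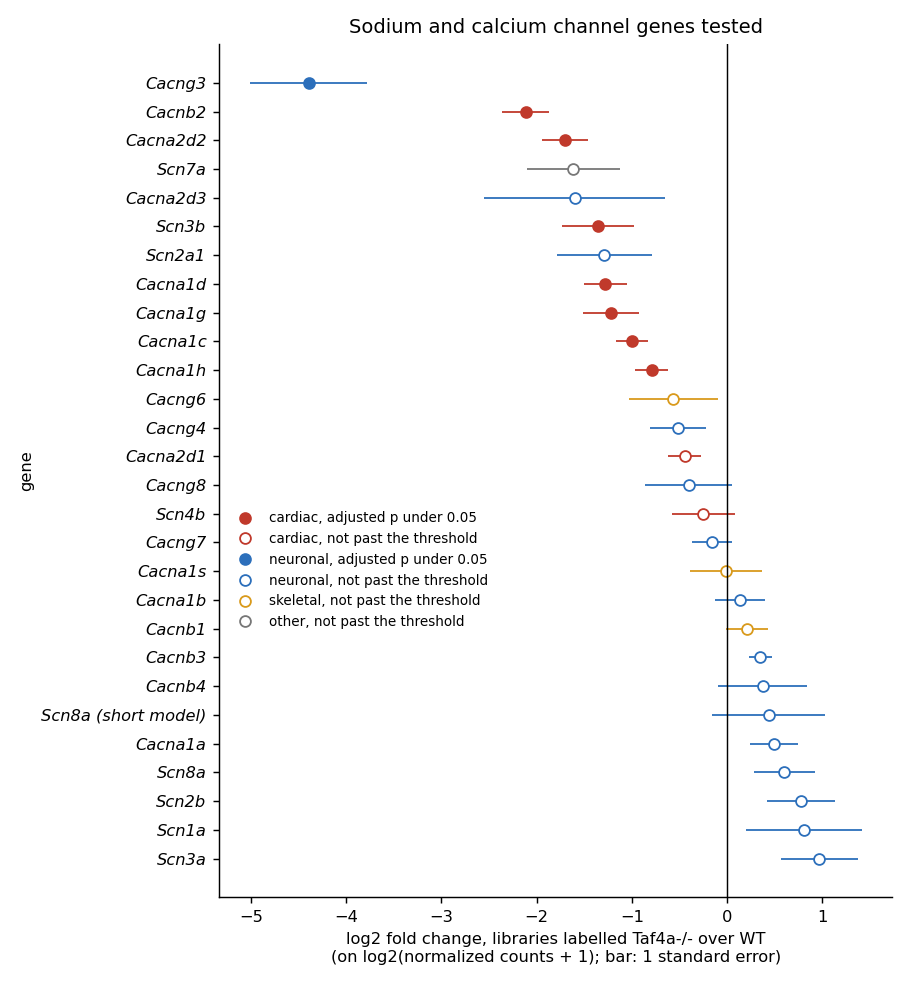
Log2 fold change (x axis, on log2(normalized counts + 1), libraries labelled Taf4a-/- over WT) with 1 standard error for channel genes tested (y axis), coloured by class, with filled points for an adjusted p under 0.05. The cardiac class genes shown lie between -2.12 and -0.25, whereas the neuronal class lies on both sides of 0 and Cacng3, which is at 0 in both libraries labelled Taf4a-/-, is farthest to the left.

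The cardiac class held 11 genes, all of them tested. In it 8 fell and 0 rose, the median log2 fold change was -1.22, and in all 11 both WT libraries stood above both libraries labelled Taf4a-/-. Over all genes tested 17.3% fell, 11.3% rose, and 36.6% had both WT libraries above both others. The neuronal class held 22 identifiers, of which 15 were tested, 1 fell, namely Cacng3, and 0 rose. Its median was 0.35 and stayed above 0 with TMM scaling and after quantile normalization, but was -0.0016 without the filter on low counts. The skeletal class held 5 genes, of which 3 were tested and 0 passed the threshold. Scn7a, Cacna1f and Cacna2d4 were placed in no class. Every other gene was put in 1 class, although some are known from more than 1 tissue. Other placements were not tried, so these counts hold for the classes as chosen.

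**Figure D2:**
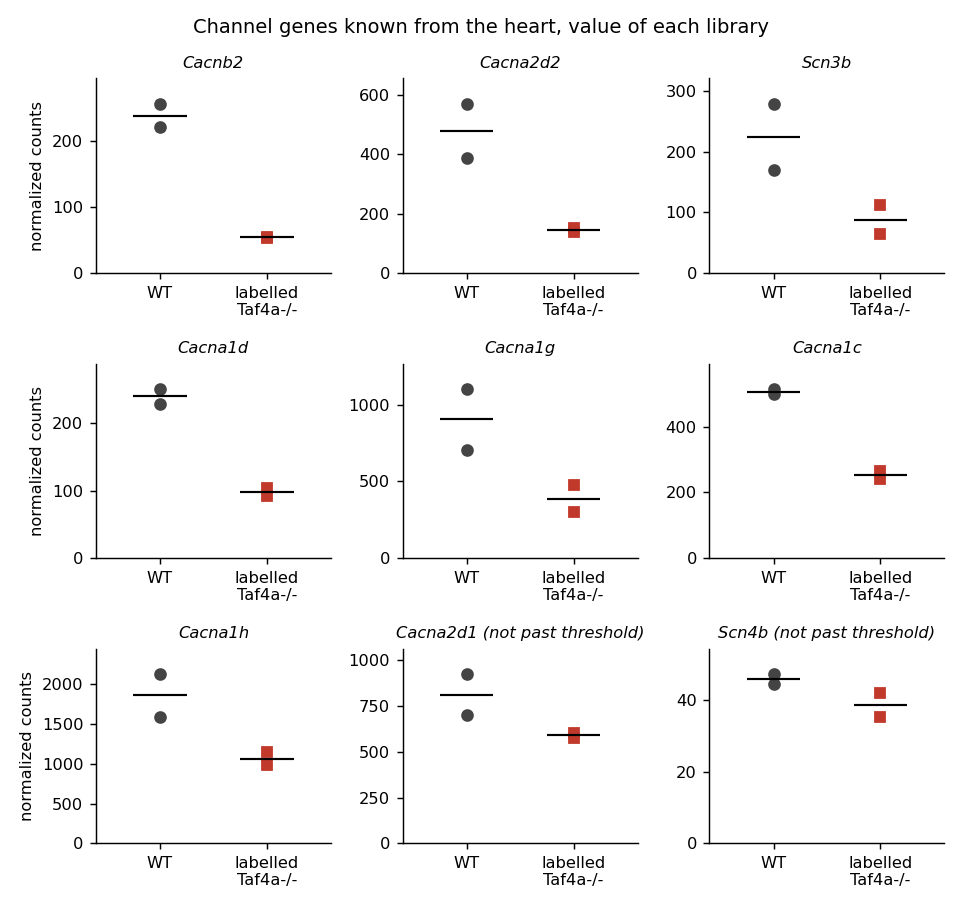
Normalized counts (y axis, from 0) of cardiac class genes in each library, with WT as circles and the libraries labelled Taf4a-/- as squares. In every panel both squares lie below both circles, with Cacnb2 at 256 and 220.3 against 53.8 and 54.2.

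Scn7a, an atypical sodium channel gene known from glia, had the lowest fold change among the sodium alpha genes tested. Its counts were 204 and 79 in WT and 47 and 35.4 in the libraries labelled Taf4a-/- (log2 fold change -1.62 ± 0.49 SE, limma, adjusted p = 0.0522). The WT libraries were themselves far apart, and the adjusted p was 0.0386 without WT replicate 2. Glial markers moved beside it, with 2 of 4 tested lower (all genes tested: 17.3%). Their sums were 935 and 985 in WT against 626 and 414, and their part in this value was not tested.

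The neuronal sodium alpha genes had values in both directions and did not pass the threshold. Scn2a1, the gene of Nav1.2 of axons, had 33.3 and 80.0 counts in WT and 22.5 and 18.8 in the libraries labelled Taf4a-/- (adjusted p = 0.102, and 0.0342 without WT replicate 1). Scn3a, its neighbour on chromosome 2 and known from the embryonic brain, had the opposite sign, with 18.4 and 21.8 in WT against 32.3 and 49.8 (log2 fold change 0.97 ± 0.40 SE, adjusted p = 0.122). Between their genes lie 53.229 kb, and they stand on opposite strands. Scn8a, the gene of Nav1.6 at nodes of Ranvier, had 78.9 and 50.9 counts in WT and 92 and 102 in the libraries labelled Taf4a-/- (0.60 ± 0.32 SE, adjusted p = 0.204). A short gene model upstream of it, which carries the same symbol, had 17.5 and 11.4 against 11.7 and 32.1. Scn1a, of inhibitory neurons, was near the limit of the test at 11.4 and 4.16 against 11.7 and 14.4. Nucleotide identity bears on these genes. Of their 50-base windows, 8.29% of those of Scn2a1, 6.41% of Scn3a and 5.33% of Scn1a also occur in some other gene. Reads from such windows may have been lost or placed in another gene, and which genes share them was not examined.

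Scn3b was the sodium beta subunit gene that fell, and Scn2b stood apart with higher values. Scn3b, a beta subunit gene linked to arrhythmia, had 169 and 278 counts in WT and 63.6 and 112 in the libraries labelled Taf4a-/- (log2 fold change -1.35 ± 0.38 SE, limma, adjusted p = 0.0430). The pairs did not overlap, but each differed internally by more than 1.5 times. Without WT replicate 1, WT replicate 2 or the library labelled Taf4a-/- replicate 1 the adjusted p was 0.0534, 0.189 and 0.148, and after quantile normalization it was 0.0885.

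Scn4b, whose product can act as the open-channel blocker of resurgent current, had 47.3 and 44.7 counts in WT against 35.2 and 42.0 (log2 fold change -0.25 ± 0.33 SE, adjusted p = 0.593). Scn2b, which neurons use to bring channels to the surface, had 50.8 and 32.2 against 75.4 and 65.3 (0.78 ± 0.35 SE, adjusted p = 0.148). Scn2b and Scn4b lie 8.366 kb apart on chromosome 9 on the same strand, and their fold changes had opposite signs.

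The alpha1 subunits of calcium channels gave 4 falls among 7 genes tested (all genes tested: 17.3%). The falls included both L-type genes of the heart and both T-type genes of the cardiac class. Cacna1c, the gene of Cav1.2 (NCBIM37 chr6:118542314-119146249, minus strand), had 499 and 514 counts in WT and 239.8 and 267 in the libraries labelled Taf4a-/-. This was a log2 fold change of -1.0 ± 0.17 (SE, limma, adjusted p = 0.01), and its replicates were the closest of the cardiac alpha1 genes in both genotypes. The adjusted p was 0.0508 without the library labelled Taf4a-/- replicate 1.

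Cacna1d, the gene of Cav1.3 of the sinoatrial node and sensory cells (NCBIM37 chr14:30853135-31304342, minus strand), had 251 and 229 counts in WT and 104 and 92.9 in the libraries labelled Taf4a-/- (log2 fold change -1.28 ± 0.22 SE, limma, adjusted p = 0.0112). Each genotype's pair was within a narrow range, and the call held without each of the 4 libraries, with a highest adjusted p of 0.0477 over the alternatives. Part of its exon sequence is shared with Chdh on the other strand, 4.99% of its 50-base windows occur in another gene, and the library kit did not mark strand. A pair of Cacna1d starts is listed by RefSeq (GRCm38.p6, 250 bases upstream of each, 5′ to 3′, capitals marking CG pairs and TATAAA read on either strand). They are shown because they are the pair with the greatest contrast in GC content among the called genes with an entry, and gene counts do not tell which start was used.
Cacna1d start 1, chr14:30353487-30353736, minus strand: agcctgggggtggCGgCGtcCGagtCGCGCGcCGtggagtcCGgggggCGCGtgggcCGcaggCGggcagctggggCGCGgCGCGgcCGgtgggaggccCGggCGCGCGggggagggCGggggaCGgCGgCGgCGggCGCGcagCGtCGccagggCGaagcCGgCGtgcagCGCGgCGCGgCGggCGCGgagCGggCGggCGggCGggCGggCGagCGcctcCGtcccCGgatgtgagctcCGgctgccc
Cacna1d start 2, chr14:30491157-30491406, minus strand: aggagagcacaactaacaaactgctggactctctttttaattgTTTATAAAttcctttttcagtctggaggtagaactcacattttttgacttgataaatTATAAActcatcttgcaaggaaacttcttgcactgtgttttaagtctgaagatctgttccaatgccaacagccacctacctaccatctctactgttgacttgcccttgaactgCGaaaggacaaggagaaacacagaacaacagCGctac
The first holds 50 CG pairs at a GC content of 86.4% and no TATAAA. The second holds 2 CG pairs at 39.6% and TATAAA at positions -207, -205 and -150 from the start, the first and second of these on opposite strands and overlapping. A TATA element acts close to a start, and these matches are far from it, so they are given as letters only.

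Cacna1g, the gene of the T-type channel Cav3.1, had 708 and 1101 counts in WT and 476 and 302 in the libraries labelled Taf4a-/- (log2 fold change -1.22 ± 0.29 SE, limma, adjusted p = 0.0289). The adjusted p was 0.133 without WT replicate 2 and 0.0657 without the library labelled Taf4a-/- replicate 2. Cacna1h, the gene of Cav3.2 and the most abundant alpha1 gene per kilobase in every library, had 1592 and 2127 against 1143 and 985 (-0.79 ± 0.18 SE, adjusted p = 0.0226). It too lost its call without WT replicate 2, at 0.0644, and without the library labelled Taf4a-/- replicate 2, at 0.0870. An exon of Cacna1h overlaps Tpsg1 on the other strand. Cacna1a and Cacna1b, the P/Q-type and N-type genes of synapses, and Cacna1s, the skeletal voltage sensor, did not pass the threshold. Cacna1a had 188 and 129 counts in WT and 219 and 218 in the libraries labelled Taf4a-/- (0.49 ± 0.25 SE, adjusted p = 0.192), Cacna1b had 138 and 177 against 198 and 148, and Cacna1s had 29.8 and 23.9 against 26.4 and 26.5.

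Cacna2d2 fell by the largest factor among the alpha2delta genes, which encode extracellular subunits that traffic the channel. On NCBIM37 it lies at chr9:107301943-107431677, plus strand. It had 569.9 and 389 counts in WT and 151 and 137 in the libraries labelled Taf4a-/- (log2 fold change -1.70 ± 0.24 SE, limma, adjusted p = 0.00613), and it kept its call without each of the 4 libraries. An exon of it overlaps the antisense model Gm17141. Cacna2d1, the main alpha2delta gene of the ventricle, had 925 and 700.3 against 579 and 604 (-0.44 ± 0.17 SE, adjusted p = 0.106, or 0.0482 without WT replicate 2). Cacna2d3, of neurons, had 20.2 and 9.35 against 0.979 and 11.1 and overlapped between genotypes (adjusted p = 0.246). It passed the filter only through WT, and its adjusted p of 0.0478 without the library labelled Taf4a-/- replicate 2 sets WT against a single library with 1 read. Cacna2d1 took a larger part of the alpha2delta family, as it held 52.3% and 55.5% of the family's counts per kilobase of exon in WT and 72.7% and 73.1% in the libraries labelled Taf4a-/-, while Cacna2d2 went from 44.8% and 42.8% to 26.3% and 23.1%.

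Cacnb2, the beta subunit gene of the heart that brings Cav1.2 to the membrane (NCBIM37 chr2:14525933-14909535, plus strand), showed the largest fall of the cardiac class. It had 256 and 220.3 counts in WT and 53.8 and 54.2 in the libraries labelled Taf4a-/-, which is 22.7% of the WT mean. The log2 fold change was -2.12 ± 0.24 (SE, limma, adjusted p = 0.0036), and it kept its call in all 15 alternatives run for it. Its exons overlap Gm10849 and Gm13269, both on the other strand. Cacnb3, the beta gene of neurons and smooth muscle, did not pass the threshold at 1009 and 1091 against 1346 and 1324 (0.35 ± 0.12 SE, adjusted p = 0.0780), although both WT values were lower, and it was called higher after quantile normalization, at 0.0492. Cacnb1, the skeletal muscle beta gene, had 148 and 176 against 198 and 176, and Cacnb4, of the brain, had 35.1 and 16.6 against 31.3 and 32.1. Per kilobase of exon Cacnb3 carried most of the family in every library, with 83.4% and 84.4% in WT and 89.1% and 89.8% in the libraries labelled Taf4a-/-, whereas Cacnb2 went from a mean of 6.46% to 1.22%. RefSeq (GRCm38.p6) lists a pair of starts for Cacnb2, and the CG-rich one of a pair for Cacnb3 is shown beside them because the fold changes of these family members had opposite signs (250 bases upstream, 5′ to 3′, capitals marking CG pairs).
Cacnb2 start 1, chr2:14604056-14604305, plus strand: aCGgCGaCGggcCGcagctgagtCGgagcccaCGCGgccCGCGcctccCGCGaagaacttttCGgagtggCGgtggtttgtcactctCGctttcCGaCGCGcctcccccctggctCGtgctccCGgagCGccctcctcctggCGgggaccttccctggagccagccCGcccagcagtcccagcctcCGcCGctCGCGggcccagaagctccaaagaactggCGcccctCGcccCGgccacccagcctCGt
Cacnb2 start 2, chr2:14823842-14824091, plus strand: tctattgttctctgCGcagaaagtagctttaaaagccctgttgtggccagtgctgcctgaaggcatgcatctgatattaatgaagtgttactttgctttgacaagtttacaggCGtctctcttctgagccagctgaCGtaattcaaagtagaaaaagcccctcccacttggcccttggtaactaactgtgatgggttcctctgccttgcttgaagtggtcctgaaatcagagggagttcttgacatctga
Cacnb3 start 2, chr15:98634517-98634766, plus strand: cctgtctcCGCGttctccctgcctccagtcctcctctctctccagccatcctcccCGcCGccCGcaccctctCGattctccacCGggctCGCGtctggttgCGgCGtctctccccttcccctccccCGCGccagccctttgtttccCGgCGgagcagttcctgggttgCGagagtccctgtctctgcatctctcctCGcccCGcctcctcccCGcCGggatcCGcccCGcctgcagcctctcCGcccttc
Cacnb2 start 1 has 30 CG pairs and a GC content of 73.2%, close to Cacnb3 start 2 with 23 and 70.4%, whereas Cacnb2 start 2 has 3 and 46.0%. Cacnb3 start 1, not printed, has 2 CG pairs and 56.0%, so each gene has a CG-rich and a CG-poor start. None of the 3 holds TATAAA in these bases, and the counts do not say which Cacnb2 start was used.

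Gamma subunit genes, which include the skeletal muscle gamma of Cacng1 and the AMPA receptor auxiliary subunits of the brain, gave 1 fall among 5 genes tested (all genes tested: 17.3%). Cacng3, of the latter kind, had 17.5 and 22.9 counts in WT and 0 in the other pair of libraries, which is at least 6.73-fold lower against a floor of 3 reads per library. With a mean of 10.1 it passed the filter only through WT, and its call (adjusted p = 0.006) is not independent of that. Cacng7, the most abundant gamma gene per kilobase, had 710.1 and 482 against 546 and 503 (log2 fold change -0.16 ± 0.21 SE, adjusted p = 0.606). Cacng4 had 129.8 and 98.7 against 69.5 and 89.6, Cacng6 had 18.4 and 20.8 against 16.6 and 9.95, and Cacng8 had 15.8 and 13.5 against 11.7 and 9.95. For all 3 of these the WT values were higher and the adjusted p was 0.229 or more.

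Markers of other cell types were read beside the neuronal and skeletal classes. Of the 12 neuronal markers tested 3 fell and 0 rose, where 17.3% and 11.3% of all genes tested did so. Their median log2 fold change was -0.70, and summed counts were 2535 and 1881 in WT against 1576 and 1869. The neuronal channel class had a median of 0.35, but of -0.0016 without the filter on low counts, and 0 of its genes rose. The skeletal muscle list had 0 of 4 tested past the threshold and sums of 505 and 596 against 395 and 306. Smooth muscle markers had 3 of 7 lower and sums of 31741 and 57612 against 21966 and 21718. No marker of these lists was at 0 in all libraries, and their part in the channel values was not tested.

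Shares per kilobase of exon were compared within each family. Among the sodium alpha genes Scn7a held 48.1% and 25% of the family's counts per kilobase in WT and 21.0% and 16.2% in the libraries labelled Taf4a-/-. Scn8a, with its 2 gene models added up, held 13.7% and 11.9% in WT against 28.0% and 37%, and neither gene's pairs overlapped. Among alpha1 genes Cacna1h held 46.0% and 49.0% in WT and 47.3% and 47.7% in the libraries labelled Taf4a-/-, and Cacna1c held 16.0% and 13.2% against 11% and 14.3%, so both shares overlapped between genotypes while their counts fell. The summed family value per kilobase was 354 and 443 in WT for alpha1 genes and 247 and 211 in the libraries labelled Taf4a-/-. For the calcium beta genes it went the other way, from 388 and 414 to 484 and 473. With 2 libraries a genotype no exact permutation test of a share can reach a p under 0.333.

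**Figure D3:**
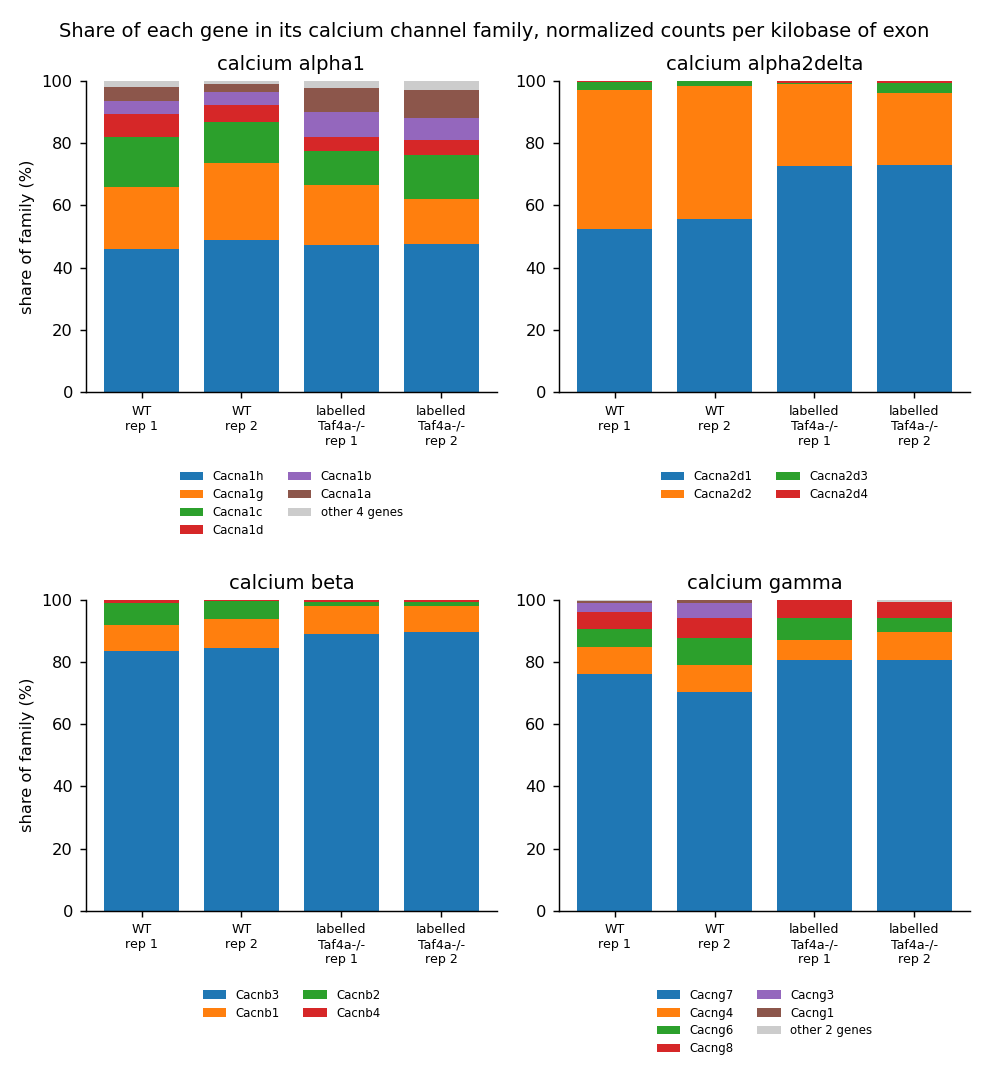
Share of each gene in the summed normalized counts per kilobase of exon of its calcium channel family (y axis, percent) in each of the 4 libraries (x axis), with the smallest members grouped as other genes. Cacna2d1 grows from 52.3% and 55.5% in WT to 72.7% and 73.1%, and Cacnb3 holds 83.4% or more in every library.

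Set beside the median of the cardiomyocyte markers, the channel genes of the cardiac class differed less between genotypes. The log2 fold changes of all 11 cardiac class genes were nearer to 0 than the marker median of -2.92, and 16 of the 17 markers fell by more than Cacnb2. Tnnt2, the gene of cardiac troponin T, fell from 2730.1 and 3281 counts to 484 and 470.0. Per 100 counts of Tnnt2, Cacna1c stood at 18.3 and 15.7 in WT and at 49.6 and 56.7 in the libraries labelled Taf4a-/-, and Cacnb2 at 9.38 and 6.71 against 11.1 and 11.5. On this scale any gene that fell by less than Tnnt2 becomes higher, as 93.7% of all genes tested did without overlap, so the same direction in all 11 cardiac class genes says nothing particular to them. How much of the channel counts came from cells other than cardiomyocytes was not tested.

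Genes whose products bind, anchor or regulate these channels were read as a list of 44, of which 42 were tested, 15 fell and 2 rose (all genes tested: 17.3% and 11.3%). The median log2 fold change was -0.37. Among the largest falls were coupling proteins between the surface channel and the calcium store. Jph2, junctophilin of the cardiac dyad, had 1080.1 and 1652 counts in WT and 166 and 168 in the libraries labelled Taf4a-/- (-2.99 ± 0.23 SE, limma, adjusted p = 0.00125). Ryr2, the calcium release channel of the sarcoplasmic reticulum, had 1254 and 1526 against 262 and 234 (-2.47 ± 0.17 SE, adjusted p = 0.00102). Both kept their call in every alternative run.

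Among channel regulators, Fgf11, a sodium channel binding factor, had 241 and 464 counts in WT and 70.5 and 58.6 in the libraries labelled Taf4a-/- (-2.36 ± 0.35 SE, limma, adjusted p = 0.00726), and Rrad, which restrains L-type current, had 365 and 526 against 158 and 122 (-1.65 ± 0.26 SE, adjusted p = 0.00822). Stac, an adaptor of L-type channels, had 45.6 and 81.0 against 4.89 and 19.9 (-2.48 ± 0.68 SE, adjusted p = 0.0409, and 0.0831, 0.191 and 0.0929 without WT replicate 1, WT replicate 2 and the library labelled Taf4a-/- replicate 1). The 2 that rose were Camk2b, a calcium and calmodulin-dependent kinase, with 86.8 and 90.4 against 246 and 194 (1.29 ± 0.24 SE, adjusted p = 0.0141), and Ryr1, the skeletal muscle release channel, with 80.7 and 60.3 against 186 and 150.4 (1.25 ± 0.28 SE, adjusted p = 0.0235). Without WT replicate 2 their adjusted p was 0.0538 and 0.0793, and without the library labelled Taf4a-/- replicate 1 it was 0.0890 and 0.127. Cav3, the caveolin of muscle, was under the filter with 13.2 and 10.4 counts in WT and 0 in the other pair.

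**Figure D4:**
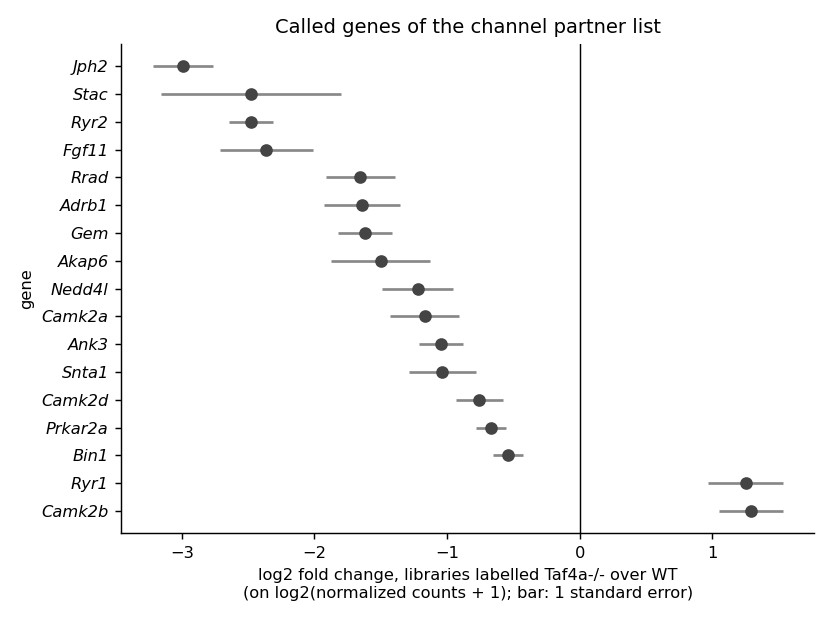
Log2 fold change (x axis, libraries labelled Taf4a-/- over WT) with 1 standard error for the 17 genes of the partner list that passed the threshold (y axis). Jph2 is lowest at -2.99, and Ryr1 and Camk2b are the 2 above 0.

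The remaining 11 members were not tested, because their mean was under 10. They were Cacna1e, Cacna1f, Cacna1i, Cacna2d4, Cacng1, Cacng2, Cacng5, Scn10a, Scn11a, Scn4a and Scn9a, with a highest mean of 9.16 and a highest single value of 16.7. Scn10a, of sensory neurons and cardiac conduction, had 12.3 and 11.4 counts in WT and 4.89 and 4.42 in the libraries labelled Taf4a-/-, from 14, 11, 5 and 4 reads. Scn11a, 59.402 kb from it on the same strand of chromosome 9, had 8.77 and 1.04 against 13.7 and 9.95. Of the tested members, 3 passed the filter only through 1 genotype, namely Cacng3, Cacna2d3 and Scn1a. Replicates of the 30 tested members differed by a median of 0.41 on the log2 scale in WT, with over 2-fold for 6 genes. In the libraries labelled Taf4a-/- the median was 0.22, with over 2-fold for 2.

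RefSeq promoter windows, from 250 bases before to 50 after a start, were found for 30 of the 40 symbols, with 41 starts. Cacna1a, Cacna1g, Cacna1h, Cacna2d4, Cacng1, Cacng4, Scn3a and Scn3b were among those with no entry. TATAAA occurred on either strand at 2 of the 41 starts (4.88%), compared with 13.6% of all 32851 promoters in the table. AGATAA, the GATA core, occurred at 1 (2.44%, all 11.2%), GGACAGC, part of the RE1 element of neuronal genes, at 2 (4.88%, all 6.56%), and the MEF2 core, CTA and TAG around any 4 bases, at 0 (all 3.69%). The median GC content was 59.3% over the channel starts and 52.7% over all promoters. A match is only a run of letters, and these counts are too few to set the classes apart.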

How the data were processed

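Messenger RNA was prepared with a poly(A) kit that does not mark strand. The authors mapped reads to mm9/NCBI37 with TopHat, counted them per gene and normalized them; the submitters' processing notes name TopHat 1.3.3, HTSeq 0.5.3p1, CASAVA 1.8 and DESeq. The deposited values are normalized counts, and each was a whole multiple of 1 read within 0.01 in 100% of cases, which gave the reads per library.

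From these, log2(normalized counts + 1) was fitted over 16926 of 24637 genes with a mean of at least 10 by limma 3.58.1 (R 4.3.3, eBayes with a variance trend), with Benjamini-Hochberg adjustment over all of them and a threshold of 0.05. This scale understates the change of low genes. The script was tested on simulated data. Gene positions and exon lengths are of NCBIM37, where all 24637 identifiers were found, 99.4% under the same symbol, and promoters are of GRCm38.p6 (RefSeq). Shares are counts per kilobase of exon within a family, with the pair of Scn8a models added up. A floor of 3 reads per library, at the mean worth of a read, bounds folds against 0. Members, classes and lists were chosen with earlier results of these data known. Results of 2 members are not reported here by name, though counts, medians and shares include them. Every other tested member is named, as are the 5 largest falls and the rises among called partners that did not overlap, Ryr2 and Taf4a; Cav3 was named after its values were seen.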

Additional observations from a re-analysis of the deposited data

How the results depend on the processing

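Across 15 alternatives no named gene past the threshold changed direction. The calls were 9 channel, 8 cardiac, 1 neuronal and 15 partner genes lower and 2 partners higher, beside 17.3% lower and 11.3% higher over all genes, and each setting is given with its own shares. With an adjusted p under 0.01 (6.61% and 1.96%), 3 channel, 2 cardiac and 6 partner genes were lower and 0 partners higher. With 0.1 (22.4% and 17.2%), 10 channel and 17 partner genes were lower, and 1 channel gene, of the neuronal class, and 3 partners higher. Without a variance trend (10.3% and 5.06%) 6 channel, 5 cardiac and 8 partner genes were lower, with Scn3b, Cacna1g and Cacna1h at an adjusted p of 0.0943, 0.0886 and 0.0789. Quantile normalization (14.5% and 15.6%) gave 7 channel, 7 cardiac, 0 neuronal and 12 partner genes lower, and Cacng3 was then untested. It gave 1 channel gene, of the neuronal class, and 3 partners higher, and medians of -0.20 (channel), -0.95 (cardiac), 0.64 (neuronal) and -0.22 (partner). With a mean of at least 50 (17.6% and 11.6%) 8 channel, 0 neuronal and 13 partner genes were lower, Cacng3 being untested, and the medians were -0.79 (channel) and -1.25 (cardiac). Without a filter (11.5% and 6.99%) 10 channel and 16 partner genes were lower, the added channel gene being Cacng1 of the skeletal class on 4, 3, 0 and 0 reads, and the neuronal median was -0.0016. Voom on recovered reads, chosen after seeing the data, gave 3 higher partners, and with TMM scaling and pseudocounts of 0.5 and 10 these counts were as in the report.

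Leaving out 1 library at a time, with a lone library taken to vary like the others, gave 6 to 8 lower channel genes, 5 to 7 cardiac, 0 to 2 neuronal and 8 to 13 partners, and 0 to 3 higher partners, where 8.60% to 18.4% of all genes were lower and 3.55% to 15.2% higher. Cacng3 was under the filter, and so untested, without WT replicate 1 and without WT replicate 2. The medians ran from -0.48 to -0.27 (channel), -1.43 to -0.95 (cardiac), 0.12 to 0.72 (neuronal) and -0.44 to -0.39 (partner). The cardiac count was 5 without WT replicate 2 or without the library labelled Taf4a-/- replicate 2. The replicate block gave 10 lower channel genes (15.7% of all genes), Scn7a being added at an adjusted p of 0.0284; replicate numbers are only names, and same-numbered deviations had a correlation of 0.01. Without division by length the shares were 16.2% and 3.36% for Cacnb2, 71.1% and 83.1% for Cacnb3 and 36.5% and 19.3% for Cacna2d2 (WT and labelled Taf4a-/-). With the Scn8a models apart, an alternative chosen after seeing the data, the share of Scn7a in the libraries labelled Taf4a-/- was 11.9%, and without division by length 13.8%, against 18.6%. The planned DESeq2 and edgeR fits were not run. The 11 untested members had 0 to 19 reads a library.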
